A study of Mus musculus with 4 samples.

Results

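The genes of the Notch pathway described here are the receptors Notch1, Notch2, Notch3 and Notch4, the ligands Jag1, Jag2 and Dll1, and the target genes Hes1, Hey1 and Heyl. They were chosen by name, as every non-control probe whose gene name in the scanner output was one of these 10, and they were 10 of 28146 gene names and 15 of 41174 probes. Expression was measured in 2 clonal lines of EPH-4, a non-malignant line of mouse mammary epithelial cells that immortalized spontaneously, on 2 Agilent Whole Mouse Genome arrays per line, labelled replicate 1 and replicate 2. EV-50 carries the empty H1-2 vector and has a normal status of the glucocorticoid receptor (GR), and shGR-19 carries a short hairpin RNA vector against GR and is labelled as GR-depleted. Both lines were kept in serum-free DMEM/F-12 medium with 2 µg/ml puromycin and no glucocorticoid is named as added, so the comparison asks which RNAs differed with the amount of GR when it has no ligand. Each line is 1 clone, so differences between clones and those of the hairpin cannot be told apart, and the sources used here do not say whether the duplicates were separate cultures, so that p-values measure only the spread between these arrays, which may be technical.

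Notch receptors are single-pass membrane proteins that are activated by ligands on a neighbouring cell. Binding leads to cleavage by an ADAM protease and then by γ-secretase, which frees the intracellular domain to enter the nucleus, where it joins the DNA-binding protein RBPJ and the co-activators of the Mastermind family. The Hes and Hey genes, which encode basic helix-loop-helix repressors, are classical targets of this complex, and in the mammary gland the pathway is known for its part in the choice of luminal cell fate.

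The values of both lines came from 2 sources that did not show the same difference, and the results below are given from each. The scanner output gives the background-subtracted intensity of each spot, which was expressed on a log2 scale with the 75th percentile of its own array as 0. The deposited value table gives log2 values of the same samples, which the authors made in GeneSpring. There every probe has its own median over the 4 samples as 0, so that the table holds differences but no levels. Over the 21172 probes that were well above background on every array, the standard deviation (SD) of the log2 difference between the scanner arrays labelled replicate 1, one of either line, was 0.225, whereas it was 0.616 between both arrays labelled EV-50 and 0.705 between both labelled shGR-19. The scanner arrays labelled replicate 1 were thus closer to each other than to the second array of their own line. Across the lines, this SD was 0.595 between EV-50 replicate 2 and shGR-19 replicate 1. It was 0.725 between EV-50 replicate 1 and shGR-19 replicate 2. These would be the SDs within the lines if the labels of replicate 1 were exchanged. Between the arrays labelled replicate 2 it was 0.513. The labels or the files of replicate 1 may therefore be wrong, which would change every scanner mean, SE and call given here by line, and which of them is wrong, if any, was not tested. Between columns of the value table this SD was 0.205 within EV-50, 0.210 within shGR-19 and 0.532 to 0.542 between the lines. Across these probes, which are not independent replicates, the change from EV-50 to shGR-19 in the table correlated with the scanner change in replicate 1 at 0.0431 and with that in replicate 2 at 0.911.

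The targeted gene, Nr3c1, which encodes GR, was measured first. The scanner levels of its brightest probe, as log2 relative to the 75th percentile, were 1.81 and 1.92 for EV-50 and 1.46 and -0.034 for shGR-19. Only the array labelled shGR-19 replicate 2 was far below those labelled EV-50. Its table values, as centred log2, were 0.98 and 0.95 in EV-50 and -0.95 and -0.98 in shGR-19, and the log2 fold change was -1.94 (standard error, SE, 0.048, limma adjusted p = 0.00215). On the scanner arrays it was -1.15 (SE 0.55), without an adjusted p below 0.01. The other probes of Nr3c1 gave -1.72, -1.63 and -1.41 in the table, each with a limma adjusted p below 0.01. On the scanner arrays they gave -0.85, -1.02 and -0.88, none with an adjusted p below 0.01. Of 6 markers of mammary epithelium, 5 were well above background on all 4 arrays (Krt8, Krt18, Krt7, Epcam and Cdh1), and 0 of them had an adjusted p below 0.01 with limma in either source, with 3 at an unadjusted p below 0.05 in the table and 0 on the scanner arrays. The sixth, the luminal keratin Krt19, passed the background test on only 1 array of each line and was left out of the fit, and its table values were 1.42 and 1.21 in EV-50 against -1.21 and -1.68 in shGR-19, without overlap.

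Probes were kept where at least 1 line had them well above background on both of its arrays, which held for 24436 probes. Of the 15 probes to the Notch genes, 13 were kept and all 10 genes had at least 1 kept probe. The second probe of Jag1 and the second of Heyl were well above background on 0 of the 4 arrays, and no value of theirs is used. The lines were compared with limma over all kept probes in each source, and a probe was called at a Benjamini-Hochberg adjusted p below 0.01. A gene was counted by its brightest kept probe, and where fewer cells expressing a gene and less RNA per cell would give the same value, array data cannot tell them apart.

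Of the 10 genes 3 were called in the value table, by 3 of the 13 kept probes, against a background of 11.6% of all kept probes. Hey1 was higher in shGR-19 (background called higher, 5.52%), and Notch1 and Jag1 were lower (background called lower, 6.04%). Of these 3, only Hey1 also differed by more than 2-fold (background, 4.26% in either direction, 1.87% higher and 2.39% lower). The other 7 genes were not called, among which Hes1, Heyl and Jag2 had an adjusted p between 0.01 and 0.05, where 36.5% of all kept probes had an adjusted p below 0.05, and 7 of the 10 genes had an unadjusted p below 0.05, as did 48.4% of all kept probes. The median log2 fold change of the 10 genes was -0.068, with 5 genes above 0 and 5 below, and that of all kept probes was 0.0087, while the median size of the change was 0.50 for the 10 genes and 0.25 for all kept probes. When 1 of the 4 columns was left out, whichever it was, limma called 0 of the 10 genes and 0 of all kept probes, with 9066 to 9826 kept probes at an unadjusted p below 0.05, and the adjusted p then ran from 0.0374 to 0.0432 for Hey1, from 0.0380 to 0.0445 for Jag1 and from 0.0483 to 0.0644 for Notch1. The number called was also 0 of the 10 with the replicate number as a block, with dim probes kept, and with the methods' t-test after Benjamini-Hochberg adjustment. The paper's methods give this equal-variance t-test for other assays and name no test for the arrays.

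From the scanner arrays limma called 0 of the 10 genes, against a background of 0.0%, and the smallest adjusted p over all kept probes was 0.930. At an unadjusted p below 0.05 there were 0 of the 10 genes and 209 of all kept probes (0.855%), and the methods' t-test with Benjamini-Hochberg adjustment also called 0. The log2 fold changes of the 13 probes ran from -0.50 to 0.54 with SEs from 0.209 to 0.794, and for 3 of them the fold change was larger than its SE. The columns of the lines did not overlap for 10 of the 13 probes in the value table (3 higher and 7 lower in shGR-19), where this held for 71.9% of all kept probes (36.6% higher and 35.3% lower). The scanner arrays of the lines did not overlap for 4 of the 13 (2 higher and 2 lower), where this held for 17.9% (11.7% higher and 6.14% lower).

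**Figure D1:**
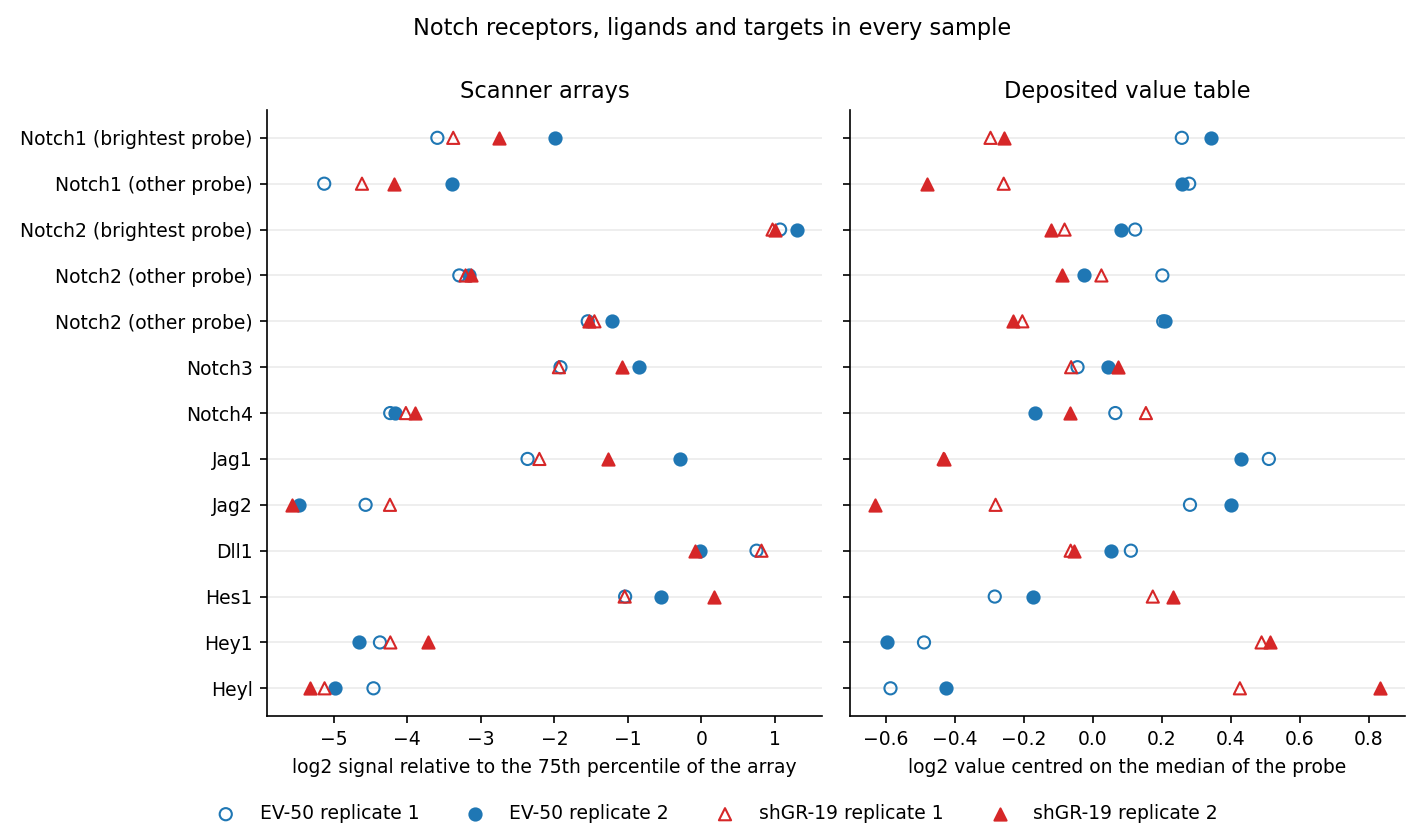
Values of the 13 kept probes in every sample, on the left as log2 scanner signal with the 75th percentile of each array at 0, on the right as centred log2 values of the deposited table. Circles are EV-50 and triangles shGR-19, open for replicate 1 and filled for replicate 2. For Jag1 the scanner arrays labelled replicate 1 lie side by side at -2.36 and -2.20, whereas in the value table the columns of each line lie together.

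Notch1, a receptor much studied in epithelial cells and in leukaemia, was measured by a pair of probes that lie end to end, at chr2:26314772-26314830 and chr2:26314830-26314889 in the mm9 build that the array's annotation uses, on the minus strand. Their sequences are shown because the probes, which share at most 1 base by these coordinates, read neighbouring stretches of the same gene. The first 30 of the 60 bases of each are given, without capitals.
Notch1 A_51_P508510: ggcactaggggaaaaacatatctgttccaa
Notch1 A_52_P183088: tatgtacttttattttccacagaaacactg

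The brighter of them, A_51_P508510, was printed in 10 spots on each array. Its scanner levels, as log2 relative to the 75th percentile, were -3.59 and -1.99 for EV-50 and -3.37 and -2.76 for shGR-19, with an SD between the spots of 1 array of 0.069 to 0.161. The 2 arrays labelled EV-50 were thus the lowest and the highest of the 4, and the groups overlapped by far more than the spread between spots. The table values of Notch1 were 0.26 and 0.34 in EV-50 and -0.30 and -0.26 in shGR-19, and the columns of the lines did not overlap. This was a log2 fold change of -0.58 (SE 0.057, adjusted p = 0.00914 with limma), or 1.49-fold lower in shGR-19, whereas the scanner arrays gave -0.27 (SE 0.61). The second probe, A_52_P183088, was at 0.28 and 0.26 in EV-50 and at -0.26 and -0.48 in shGR-19 by the table, and its log2 fold change of -0.64 (SE 0.095) missed the threshold (limma, adjusted p = 0.0192). It was well above background on 3 arrays and not on that labelled EV-50 replicate 1.

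Notch2, a receptor that is widely expressed in epithelia, had 3 kept probes at chr3:97951205-97951264, chr3:97952843-97952902 and chr3:97953914-97953973. The brightest was at 1.07 and 1.30 in EV-50 and at 0.97 and 1.00 in shGR-19 on the scanner arrays, and at 0.12 and 0.082 against -0.082 and -0.12 in the value table. Both sources gave the same log2 fold change of -0.20, with an SE of 0.050 in the value table (limma, adjusted p = 0.0523) and of 0.22 on the scanner arrays, and in neither source did the groups overlap. The other probes gave log2 fold changes of -0.43 (SE 0.047, limma adjusted p = 0.0110) and -0.12 (SE 0.11, limma adjusted p = 0.436) in the value table, so that the 3 probes of Notch2 had the same sign there, with none called. The dimmest of the 3 was instead at 0.055 on the scanner arrays (SE 0.21).

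Notch3, a receptor known best from the mural cells of blood vessels, and Notch4, known best from endothelium, each had 1 probe, at chr17:32257848-32257907 and chr17:34725120-34725179. Notch3 was at -1.92 and -0.85 in EV-50 and at -1.94 and -1.09 in shGR-19 on the scanner arrays, and at -0.044 and 0.044 against -0.063 and 0.074 in the value table, and the lines overlapped in both. Its log2 fold change was 0.0054 in the value table (SE 0.076) and -0.13 on the scanner arrays (SE 0.50), neither called. Notch4 was at -4.23 and -4.17 in EV-50 and at -4.02 and -3.90 in shGR-19 on the scanner arrays, where the groups did not overlap, and at 0.065 and -0.17 against 0.15 and -0.065 in the value table, where they did. Its log2 fold changes of 0.24 on the scanner arrays (SE 0.21) and 0.095 in the table (SE 0.13) were not called. Among the markers of the cells in which both receptors are best known, Pecam1, Cdh5, Tie1 and Emcn of endothelium and Rgs5, Des, Abcc9 and Kcnj8 of mural cells were well above background on 0 of the 4 arrays. Other markers of the same lists were measured: Pdgfrb and a probe of Cspg4 of mural cells were well above background on all 4 arrays and a probe of Tek of endothelium on 3, and Pdgfrb was called higher in shGR-19 in the value table, by 2.03 on the log2 scale (SE 0.059, limma adjusted p = 0.00232). That probe of Cspg4 was instead at -0.27 in the value table and was not called (SE 0.13, limma adjusted p = 0.206).

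Jag1, a ligand of the Jagged type, which is anchored in the membrane of the signalling cell, gave the largest decrease among the called genes. Its kept probe lies at chr2:136907433-136907492 of mm9 and begins with the following 30 bases.
Jag1 A_52_P634090: ggagtattctcataagctagttgaatactt

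The scanner levels of this probe were -2.36 and -0.29 for EV-50 and -2.20 and -1.27 for shGR-19. The gap of 2.07 between the arrays labelled EV-50 was the largest of any kept probe of the 10 genes in that line, and the lines overlapped. Its table values were 0.51 and 0.43 in EV-50 and -0.43 in both columns of shGR-19. The log2 fold change was -0.90 (SE 0.054, adjusted p = 0.00469 with limma), or 1.87-fold lower in shGR-19, and on the scanner arrays it was -0.41 (SE 0.79). Within the scanner arrays labelled replicate 2 alone, the difference was -0.98, close to that of the table, and within replicate 1 it was 0.16, of the opposite sign.

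The other ligands were not called. Jag2, the second Jagged ligand, had 1 probe at chr12:114146887-114146946 with scanner levels of -4.57 and -5.47 in EV-50 and -4.23 and -5.56 in shGR-19, near the lowest level counted as well above background, which lay between -4.76 and -6.08 on these arrays. Its table values were 0.28 and 0.40 against -0.28 and -0.63, and the log2 fold change of -0.80 missed the threshold (SE 0.15, limma adjusted p = 0.0285), whereas the scanner arrays gave 0.12 (SE 0.58). Dll1, a ligand of the Delta type, had 1 probe in 10 spots at chr17:15504623-15504682, with scanner levels of 0.75 and -0.022 in EV-50 and 0.82 and -0.088 in shGR-19. Its levels followed the replicate number and not the line, and arrays of the same number differed by 0.067 and -0.066, beside an SD between spots of 0.045 to 0.074. The value table gave -0.14 for Dll1 (SE 0.050, limma adjusted p = 0.112).

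Hey1, which encodes a repressor of the Hes and Hey family, was the 1 gene of the 10 called higher in shGR-19. The probes of Hes1 and of Hey1 and Heyl are shown together because these targets all lay above 0 in the value table, where Jag1 and Notch1 lay below, although Heyl lay below 0 on the scanner arrays. They lie at chr16:30065983-30066278 for Hes1, chr3:8663432-8663491 for Hey1 and chr4:122926975-122927034 for Heyl. That of Hes1, given whole, is the only one of the 15 probes whose 60 bases span a longer stretch of the genome, of 296 bases, and the first 30 bases are given of the others.
Hes1 A_51_P498093: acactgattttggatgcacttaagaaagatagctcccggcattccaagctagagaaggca
Hey1 A_51_P258409: gatttgggctctaaaagtattgttttacag
Heyl A_52_P337259: aatcattttcttcaaggtctttgcccttct

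The scanner levels of Hey1, as log2 relative to the 75th percentile, were -4.37 and -4.65 for EV-50 and -4.23 and -3.72 for shGR-19. All 4 were well above background and the groups did not overlap, although arrays labelled replicate 1 differed by only 0.14. The probe was dim, with background-subtracted intensities of 25.5 and 23.3 in EV-50 and 27.5 and 44.0 in shGR-19. On the array labelled EV-50 replicate 1 the lowest level counted as well above background was -4.76. The table values were -0.49 and -0.60 in EV-50 and 0.49 and 0.51 in shGR-19. The log2 fold change was 1.04 (SE 0.062, adjusted p = 0.00462 with limma), or 2.06-fold higher in shGR-19, and on the scanner arrays it was 0.54 (SE 0.28). With another background correction (normexp, offset 50) the scanner log2 fold change was 0.18 (SE 0.19).

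Hes1, a widely used readout of Notch activity, was at -1.04 and -0.55 in EV-50 and at -1.04 and 0.17 in shGR-19 on the scanner arrays. The arrays labelled replicate 1 had the same level, and that labelled shGR-19 replicate 2 was the highest. By the table Hes1 was at -0.28 and -0.17 against 0.17 and 0.23, with no overlap, and the log2 fold change of 0.43 missed the threshold (SE 0.065, limma adjusted p = 0.0196), and on the scanner arrays it was 0.36 (SE 0.49). The difference of Hes1 in the table did pass when the test was limited to the probes that all 4 arrays held well above background (limma, adjusted p = 0.00962). It also passed with an intensity trend and a robust prior (limma, adjusted p = 0.00164).

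Heyl, another repressor of the family, went in opposite directions in the 2 sources. The scanner levels of its kept probe were -4.46 and -4.99 for EV-50 and -5.12 and -5.32 for shGR-19, so that both arrays labelled shGR-19 were the lower. The table values were -0.59 and -0.43 in EV-50 and 0.43 and 0.83 in shGR-19, so that both columns of shGR-19 were the higher. The log2 fold changes were -0.50 (SE 0.28) and 1.13 (SE 0.17, limma adjusted p = 0.0193), and neither was called. The probe was dim, with background-subtracted intensities of 24.0 and 18.4 in EV-50 and 14.8 and 14.5 in shGR-19, and it was not well above background on the array labelled EV-50 replicate 1.

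**Figure D2:**
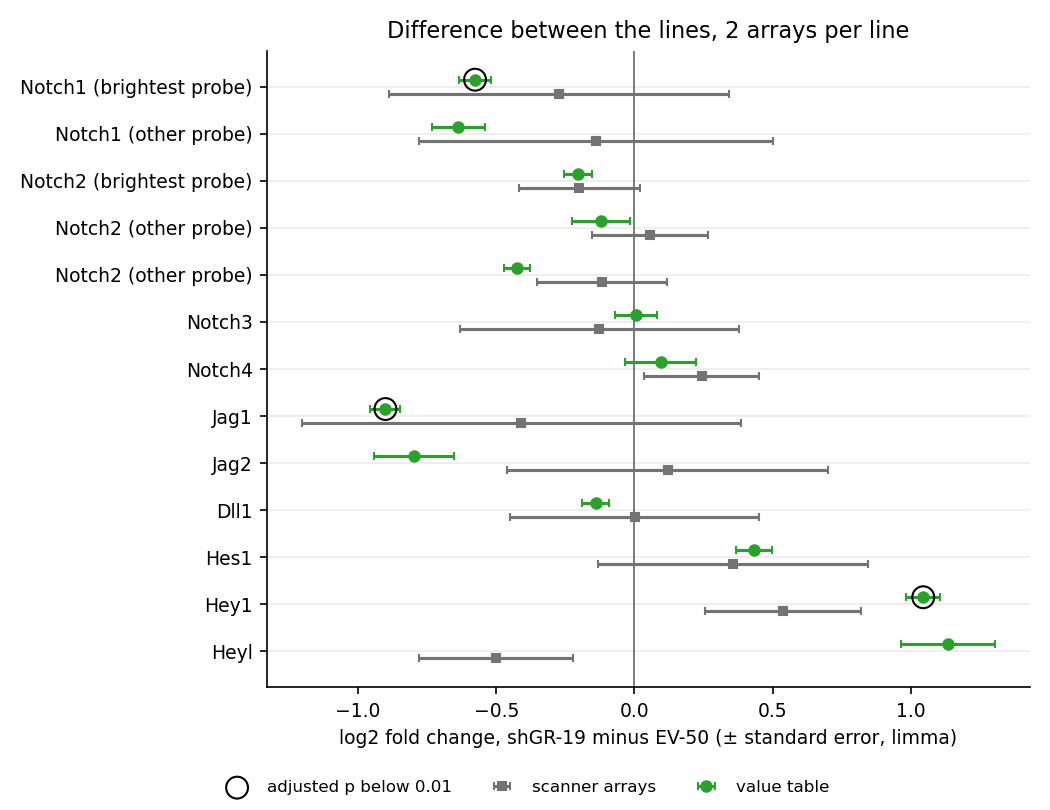
Log2 fold change of shGR-19 against EV-50 with its standard error from limma, for the 13 kept probes in the value table (green circles) and on the scanner arrays (grey squares). Rings mark the 3 probes called at an adjusted p below 0.01 in the value table, Notch1 at -0.58, Jag1 at -0.90 and Hey1 at 1.04, and the scanner bars are wider throughout.

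The scanner difference was next taken within each replicate number. Between arrays labelled replicate 1 the 13 probes differed by -0.67 to 0.51, and between those labelled replicate 2 by -0.98 to 0.93. The sign was that of the value table for 3 of the 13 probes in replicate 1 and for 10 of the 13 in replicate 2. For the called genes, replicate 1 gave 0.22 for Notch1, 0.16 for Jag1 and 0.14 for Hey1, whereas replicate 2 gave -0.76, -0.98 and 0.93 in the same order. The directions of Notch1 and Jag1 in the table were therefore those of the scanner arrays labelled replicate 2 and not of those labelled replicate 1. With 1 array of each line these differences have no test.

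**Figure D3:**
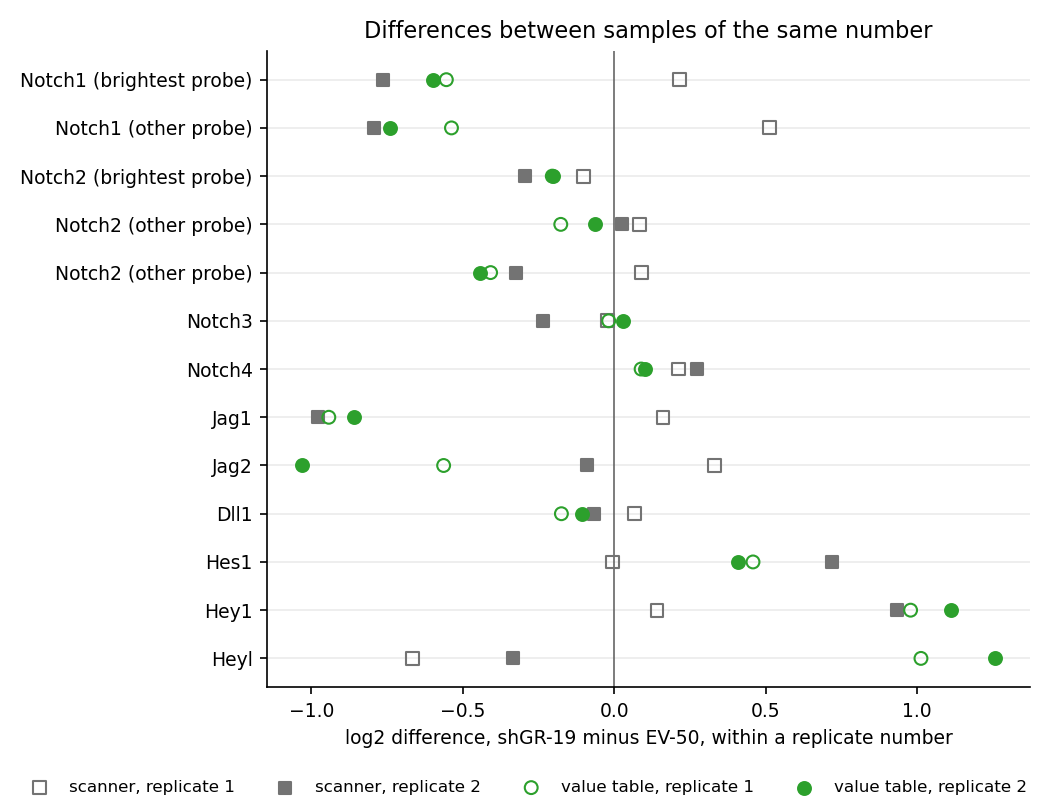
Log2 difference of shGR-19 minus EV-50 between samples of the same replicate number, for the 13 kept probes, on the scanner arrays (squares) and in the value table (circles), open for replicate 1 and filled for replicate 2. For Jag1 the filled square, at -0.98, lies with the circles and the open square lies at 0.16.

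The rest of the pathway was described with a list of 57 other genes, the ligands, proteases, glycosyltransferases, nuclear partners, co-repressors and further targets of Notch signalling. Of these 55 were matched by name on the array and 48 had a kept probe. Of the 48 genes 8 were called in the value table, 7 higher and 1 lower in shGR-19, and 40 were not, with the background again at 11.6% (5.52% higher and 6.04% lower). The difference was above 0 for 37 of the 48 genes and below 0 for 11, where it was above 0 for 12462 of all 24436 kept probes, and the median log2 fold change was 0.22, where that of all kept probes was 0.0087. From the scanner arrays 0 of the 48 were called, 0 had an unadjusted p below 0.05, and the median was 0.12, where that of all kept probes was 0.018. For the deposited values 0 of the 48 were called by limma when 1 column was left out, whichever it was, by limma with the replicate block or with dim probes kept, and by the methods' t-test after Benjamini-Hochberg adjustment.

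Among the nuclear partners and co-repressors, Tle4, a co-repressor of the Groucho family that Hes proteins recruit, showed the largest increase of the list, with table values of -0.95 and -0.89 in EV-50 and 1.03 and 0.89 in shGR-19 and a log2 fold change of 1.87 (SE 0.072, adjusted p = 0.00301 with limma). Its relative Tle2 showed the only called decrease of the list, -1.63 (SE 0.068, limma adjusted p = 0.00330), from 0.77 and 0.83 in EV-50 to -0.77 and -0.89 in shGR-19. The co-activator Maml1 was called higher at 0.70 (SE 0.059), whereas Rbpj, the DNA-binding partner of the Notch intracellular domain, missed the threshold at 0.81 (SE 0.10, limma adjusted p = 0.0137). The Groucho family was thus not uniform, and Tle1 (0.27) and Tle3 (0.27) were not called.

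Nrarp and Gata3, which like the Hes and Hey genes lie downstream of Notch in several tissues, were called higher in the table. Nrarp, an inhibitor of the Notch complex that Notch itself induces, was at -0.45 and -0.52 in EV-50 and at 0.45 and 0.60 in shGR-19, with a log2 fold change of 1.01 (SE 0.078, limma adjusted p = 0.00640). Its scanner levels were -2.92 and -3.14 in EV-50 and -2.60 and -2.15 in shGR-19, without overlap. Gata3, a transcription factor of luminal mammary cells, was 0.67 higher on the log2 scale (SE 0.051). Among the enzymes and ligand-like proteins, Lfng, a glycosyltransferase that alters how receptors respond to their ligands, was higher by 0.88 (SE 0.056) with both of its probes called (the other at 0.87). Furin, the protease that matures the receptors, was higher by 0.52 (SE 0.049), and Dlk2, a membrane protein related to Delta, by 0.89 (SE 0.053). Between the scanner arrays labelled replicate 1, Lfng, Furin and Dlk2 differed by 0.0039, 0.051 and 0.013, and between those labelled replicate 2 by 0.65, 0.50 and 0.79.

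For some genes of the list the answer depended on the probe. A dimmer probe was called where the brightest was not for Hes6 (0.58, limma adjusted p = 0.00861), Dtx3 (0.61, limma adjusted p = 0.00899) and Aph1b (0.49, limma adjusted p = 0.00986), with the brightest at 0.60, 0.50 and 0.61. The kept probes of Adam17, Hes2, Numb and Snw1 differed in sign in the table and were not called. The genes Aph1c, Dll3, Dner, Dtx1, Elf5, Hey2 and Mfng had no kept probe.

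**Figure D4:**
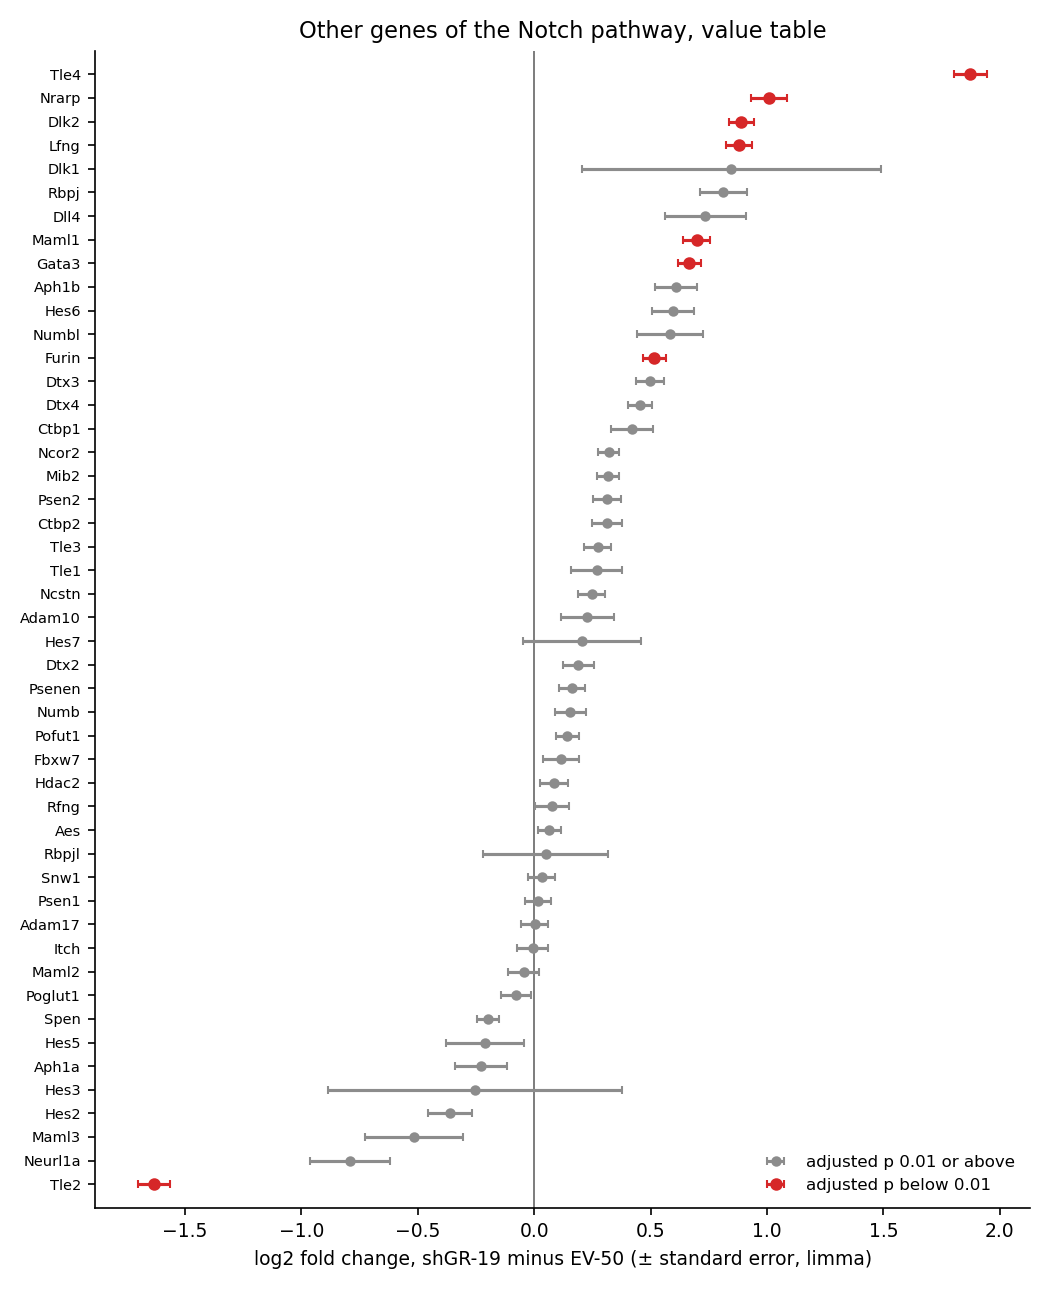
Log2 fold change of shGR-19 against EV-50 in the value table with its standard error from limma, for the brightest kept probe of the 48 other pathway genes, ordered by value. Red points are the 8 genes called at an adjusted p below 0.01, from Tle2 at -1.63 to Tle4 at 1.87.

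Some markers best known from other cell types, or from basal mammary cells, were called in the value table as well, although each line is 1 clone of an epithelial line. Krt14, a keratin of basal mammary cells, differed by -1.13 (SE 0.049) in the table, and it was the 1 called of the 5 kept genes of 6 basal or myoepithelial markers, with Oxtr well above background on no array. The summed background-subtracted intensity of the basal list was 36760 and 101320 for EV-50 and 36963 and 49209 for shGR-19. Of these sums Krt14 alone gave 27400 and 88729 for EV-50 and 27217 and 38672 for shGR-19. Of 6 fibroblast markers 2 were kept and both were called higher, Col1a2 by 3.27 and Pdgfra by 1.16, and Dcn was well above background on no array. The summed intensities were 907 and 1817 in EV-50 and 839 and 19906 in shGR-19. Of these sums Col1a2 alone gave 846 and 1719 in EV-50 and 802 and 17586 in shGR-19. Col1a1 had no kept probe and was left out of the fit. The table values of its brightest probe were -2.80 and -2.78 in EV-50 against 2.78 and 2.78 in shGR-19, without overlap. Its scanner intensities were 6.77 and 45.5 in EV-50 and 7.91 and 2192 in shGR-19, well above background only on the arrays labelled replicate 2. Other markers without a kept probe did not all go this way. Lum was at 0.12 and 0.77 in EV-50 against -0.12 and -0.17 in shGR-19 in the table. A probe of Dcn was also lower in shGR-19, and the probes of Col3a1 differed in direction. Of 6 mural markers 2 were kept, Pdgfrb and Cspg4, with summed intensities of 253 and 2122 in EV-50 and 232 and 9005 in shGR-19. Of these sums Pdgfrb alone gave 115 and 2005 in EV-50 and 129 and 8899 in shGR-19. The table change of Cspg4 was instead -0.27 (SE 0.13) and was not called. Of 6 endothelial markers only Tek was kept, with summed intensities of 47.6 and 56.0 in EV-50 and 44.3 and 58.3 in shGR-19, and of 6 immune markers 4 were kept, of which Cd14 was called lower (-0.81) and Ptprc and Itgam were well above background on no array. The scanner log2 fold changes of the called markers were -0.58 (SE 0.57) for Krt14, 1.66 (SE 1.49) for Col1a2 and 0.95 (SE 0.96) for Pdgfra. They were 1.18 (SE 2.43) for Pdgfrb and -0.41 (SE 0.25) for Cd14, and none was called there. The part of these marker differences in those of the Notch genes was not tested.

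The promoters of Notch1 and Jag1 are shown because both genes were called lower in the table and the lines were made to differ in a DNA-binding receptor. RefSeq promoters of GRCm38.p6, which hold 250 bases before and 50 after a start, were matched for 7 of the 10 genes, with 8 windows in all. The 7 are the receptors and the ligands, and no promoter was matched for the target genes Hes1, Hey1 and Heyl. The 250 bases before the start are printed on the strand of the gene with CG pairs in capitals, at chr2:26503823-26504072 for Notch1 and chr2:137116521-137116770 for Jag1, both on the minus strand.
Notch1 upstream: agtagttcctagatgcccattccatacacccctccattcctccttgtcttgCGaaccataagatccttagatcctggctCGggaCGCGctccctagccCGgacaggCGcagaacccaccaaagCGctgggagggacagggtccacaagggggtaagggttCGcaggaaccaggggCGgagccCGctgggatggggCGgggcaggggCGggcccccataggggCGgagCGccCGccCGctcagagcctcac
Jag1 upstream: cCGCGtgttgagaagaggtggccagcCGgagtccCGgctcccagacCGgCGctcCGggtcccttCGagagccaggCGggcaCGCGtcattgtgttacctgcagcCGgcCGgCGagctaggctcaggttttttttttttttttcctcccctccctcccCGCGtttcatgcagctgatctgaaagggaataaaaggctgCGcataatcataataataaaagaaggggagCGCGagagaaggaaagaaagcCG

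Notch1 had 16 CG pairs in this stretch and Jag1 had 20, where the median of all 32851 promoters was 6 and 25.4% and 17.9% of them had at least as many. The core letters of an RBPJ site, GTGGGAA or TTCCCAC on the other strand, were in 0 of the 8 windows and in 6.38% of all promoters. This search did not cover the target genes Hes1, Hey1 and Heyl, which had no window. The letters of a short GR motif, AGAACA or TGTTCT on the other strand, were in 1 of the 8 windows, that of Dll1, and in 19% of all promoters. These are matches of letters in a short window and describe no binding.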

How the data were processed

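RNA of EV-50 and shGR-19 (300 ng per array) was labelled with Cy3 and hybridized to 4 arrays of 1 slide, all from 1 scan, which leaves no batch of slide or scan to fit. A batch of culture, RNA or labelling is not named in the labels, and the replicate number was fitted as a block among the alternatives. The authors deposited the intensity of each of 43379 spots, background-subtracted by Agilent Feature Extraction 10.5.1.1 (per the submitters' processing notes) and not scaled between arrays. The second deposited source holds log2 values that the authors made in GeneSpring, where each probe is relative to its median over the 4 samples. Spots well above background numbered 23290 to 27358 per array, 74 to 139 outlier spots per array were left out, and 0 were saturated. The number of arrays limits the precision.

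Scanner signals were put on a log2 scale relative to the 75th percentile over probes of each array, and spots of 1 probe were averaged. Both sources were fitted with lmFit and eBayes in limma 3.58.1 (R 4.3.3, statmod 1.5.0) and adjusted by Benjamini-Hochberg over all kept probes. Tables and figures used Python 3.11.15, pandas 2.3.3 and matplotlib 3.10.9. The fits were run on simulated data in which all arrays varied independently. Same-numbered scanner arrays shared deviations, so this run does not show how the fits behave on them. Permutation tests were not used, because 2 arrays against 2 allow no exact p under 0.333. The genes named are the 10 members, the genes of the pathway list called in the value table or whose probes disagree, Nr3c1 and the markers. The members and lists were chosen with earlier results of these data known, and the motif search and the replicate 2 difference of the value table were added after the data were seen. Rbpj, Tle1 and Tle3 were named after their values were seen. Alternatives covered the background correction (normexp, offset 50), the scaling (quantile, or the percentile over detected probes), the filter on dim probes, an intensity trend with a robust prior, a block for the replicate number, leaving out each array, the mean of a gene's probes, an adjusted p below 0.05 and the methods' equal-variance test. The methods give that test for other assays and not for the arrays.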

Additional observations from a re-analysis of the deposited data

How the results depend on the processing

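The number of the 10 Notch genes called on the scanner arrays was 0 under every alternative run on those arrays, and it was 3 with the value table in their place, as the number of pathway genes was 0 and 8. In the value table the 3 genes became 0 and the 8 pathway genes became 0 with all probes kept (43 of all probes called, and the median of all probes at -0.113), with the replicate number as a block (0 of all kept probes called, 12085 at an unadjusted p below 0.05), with the methods' equal-variance test after Benjamini-Hochberg adjustment (23 of all kept probes called), and with any 1 array left out (0 to 0 for both lists). At an adjusted p below 0.05 they were 6 and 23, where 36.5% of all kept probes passed. The pathway count was 15 when every probe had to be well above background on all 4 arrays, where 4873 of 21172 probes were called. It was 19 with an intensity trend and a robust prior, where 8046 of 24436 probes were called. The count of the 10 Notch genes was 4 under each of these settings. In the replicate block fit the adjusted p of limma was 0.0311 for Notch1, 0.0293 for Jag1 and 0.0297 for Hey1. By the labels, same-numbered samples share only that number. On the scanner arrays they shared more, with a correlation of 0.652 between the deviations within the lines, against 0.109 in the value table. The main fits do not take this pairing into account.

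The sign of the scanner log2 fold change turned with the value table in their place for Notch3 (0.0054), Jag2 (-0.80), Dll1 (-0.14) and Heyl (1.13). It turned with the arrays labelled replicate 2 alone for Jag2 (-0.091) and Dll1 (-0.066), and Dll1, near 0, also turned with normexp (-0.0037), quantile normalization (-0.0049) and another percentile (-0.0015). With 1 scanner array left out, values ran from -1.07 to 0.52 for Notch1, from -0.66 to 0.41 for Notch3, from -1.44 to 0.63 for Jag1, from -0.54 to 0.78 for Jag2, from -0.45 to 0.45 for Dll1 and from -0.25 to 0.96 for Hes1. The table's values ran from -0.063 to 0.074 for Notch3 and from -0.021 to 0.21 for Notch4. The cause was not tested for any of these. A line with 1 array left was assumed to vary like the other. The dim probes of Jag2 and Heyl lay near the lowest level counted as above background. That of Hey1 did so on the array labelled EV-50 replicate 1.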
